A study of Cricetulus griseus with 9 samples.

Results

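The enzymes of glycolysis that follow hexokinase were followed through 8 transcripts: GPI, Pfkl, Pfkm, Pfkfb3, Aldoa, PGK1, Pgam1 and Bpgm. They were chosen by symbol, with letter case ignored, from a table of 6753 genes. All 8 are rows of that table, and the minimum level set for the tests removed 0 genes from it. RNA sequencing of mRNA libraries was used to measure them in MI5-4 cells, a line derived from Chinese hamster ovary (CHO) cells, in 9 libraries. The design text calls the EV group hexokinase null and says that the WTHK2 group expresses wildtype HK2. The LAC group consisted of EV cells kept in 10 mM sodium lactate for 24 h. Each group had 3 libraries. All groups shared the MI5-4 background and a glucose-containing medium with fetal bovine serum. The sources used here do not give the promoter or species of the HK2 construct, what EV stands for, or whether each line was a clone or a pool.

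Glycolysis splits glucose into pyruvate. Hexokinase traps glucose as glucose 6-phosphate, an isomerase turns this into fructose 6-phosphate, and phosphofructokinase commits it to the pathway. Aldolase then cleaves the sugar into trioses, and the rest of the pathway passes through phosphoglycerate kinase, which makes ATP, and phosphoglycerate mutase. Lactate is made from the pyruvate at its end, and proliferating cell lines such as CHO are known for a high flux through this route.

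Values are normalized CPM, that is reads of a gene scaled to the size of the library, and they are not divided by transcript length, so levels are compared only within a gene. The effective library sizes ran from 18050959 to 26238659 reads. The Hk2 transcript had a mean of 67.3 ± 2.11 CPM in EV (SD, n = 3). With 65.3 ± 1.33 CPM for WTHK2 and 67.8 ± 2.92 for LAC, the label WTHK2 was not matched by a higher Hk2 value. Hk1 was at 324 ± 7.09 CPM in EV, so transcripts of both hexokinases were counted in the group called hexokinase null. Directions given for the libraries labelled WTHK2 therefore rest on the label. Whether reads of the construct would be counted for this gene was not tested. Of the marker genes of other cell types, 0 of 4 epithelial and 0 of 3 leukocyte symbols were found among the genes analysed, while 2 of 4 mesenchymal ones, Vim and S100a6, were. The lowest mean among the genes analysed was 20.4 CPM, so a missing symbol does not show that the gene was not expressed. The 4 mitochondrially encoded transcripts that were found summed to between 11862 and 12631 CPM in EV, 15876 and 19732 in WTHK2, and 16376 and 20765 in LAC. Replicate 1 was the highest of its group in both WTHK2 and LAC. Nothing in the labels says that replicates were separate cultures, so the tests see only the spread among these libraries, which may be technical.

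In the cells given lactate, the 8 transcripts, a part of the pathway, were mostly higher than in untreated EV cells. GPI, Pfkl, Aldoa, PGK1, Pgam1 and Bpgm rose by between 8.58% and 21.5%, Pfkm did not pass the test, and Pfkfb3 fell by 34.9%. In the limma fit over all genes, 6 of 8 passed upward and 1 of 8 downward at an adjusted p of 0.05. The background was 22.4% of all genes upward and 27.1% downward, 49.5% together. The median log2 fold change of the 8 genes was 0.19, beside -0.0035 over all genes, while their mean was 0.089. The EV and LAC values did not overlap for 6 of 8 genes, 5 of them higher and 1 lower in LAC, against a background of 57.8% (27.0% higher, 30.8% lower). With replicate 1 of WTHK2 and of LAC left out, 5 passed upward and 1 downward. The mitochondrially encoded transcripts were higher in LAC and WTHK2 than in EV, and their part in these changes was not tested.

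In the libraries labelled WTHK2 fewer of the 8 genes passed against EV. Aldoa rose by 13.1%, Pfkfb3 fell by 34.7%, and the other 6 genes did not pass. The 2 of 8 that passed are set against 46.4% of all genes, 21.0% upward and 25.4% downward. The median log2 fold change of the 8 was 0.020, beside -0.0082 over all genes, while their mean was -0.034. Their median absolute log2 fold change was 0.048, beside 0.13 over all genes. The 2 groups did not overlap for 2 of 8, 1 in each direction, against a background of 57.1% (26.6% higher, 30.5% lower). With replicate 1 of WTHK2 and of LAC left out, the count was again 2. Both comparisons use the same EV libraries, so they are not independent of each other. With every library rescaled to the same median, 57.3% of all called genes were higher in WTHK2 and 58.6% in LAC, instead of 45.3% in each.

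Compared directly, the libraries labelled WTHK2 lay below LAC for GPI, Pfkl and Pgam1, and 0 of the 8 genes passed upward in the limma fit (0 also at an unadjusted p under 0.05, where 5 were lower). These 3 of 8 stand beside a background of 16.1% of all genes, 8.37% upward and 7.76% downward. The values did not overlap for 4 of 8 genes, all lower in WTHK2, against a background of 29.0% (14.5% higher, 14.5% lower). The count was 5 without LAC replicate 2, when Aldoa and PGK1 also passed. The median of the 8 was -0.10, beside 0.0041 over all genes.

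**Figure D1:**
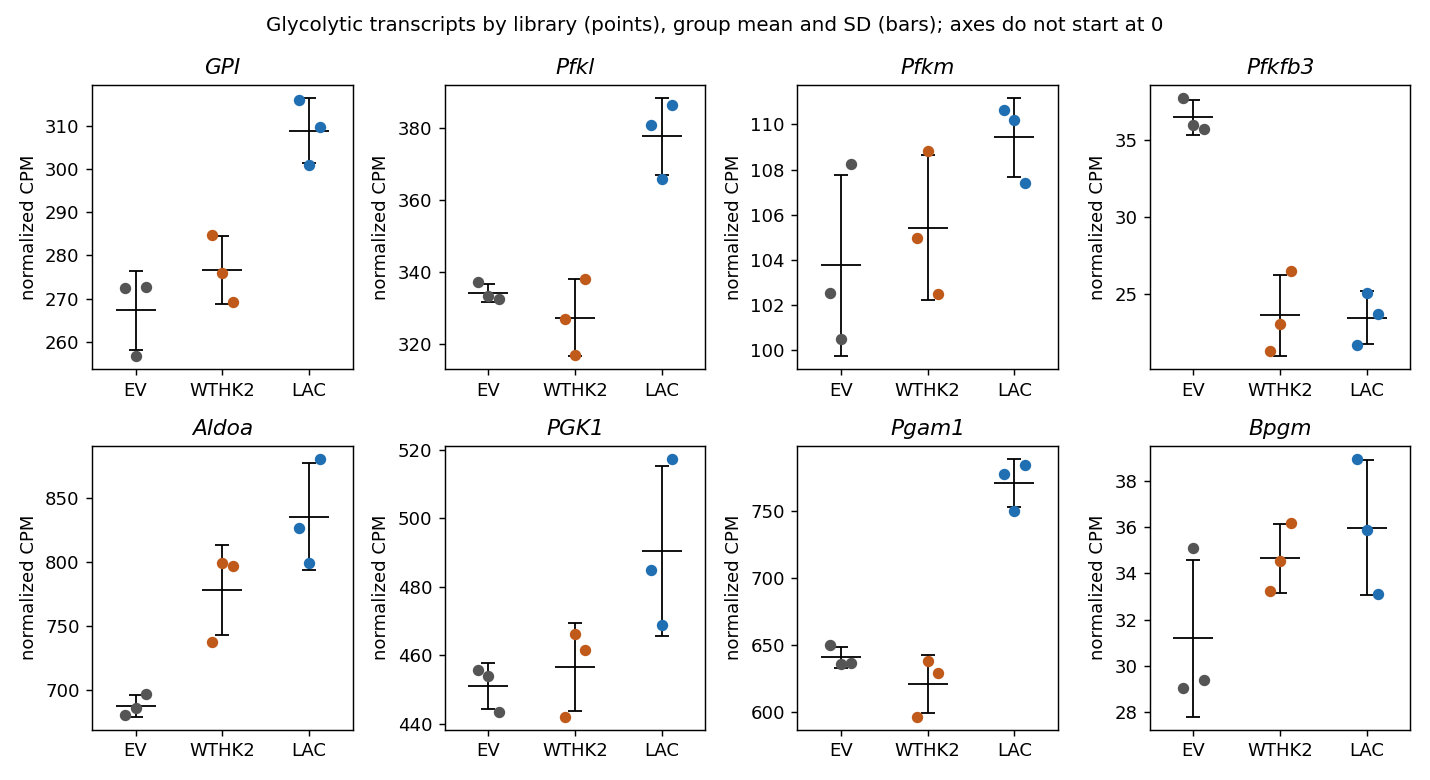
Normalized CPM of the 8 transcripts in each library (points: 3 libraries per group; horizontal bars: group mean; vertical bars: SD). LAC lies above both other groups for GPI, Pfkl and Pgam1, and Pfkfb3 lies lower in WTHK2 and LAC (21.3 to 26.5 CPM) than in EV (35.7 to 37.8 CPM).

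The first step after hexokinase is made by glucose-6-phosphate isomerase, the product of GPI. GPI stood at 272, 257 and 273 CPM in EV replicates 1 to 3, at 285, 276 and 269 in WTHK2, and at 316, 301 and 309.8 in LAC. The LAC libraries were all above the other 6, while EV and WTHK2 overlapped. The log2 fold change in LAC against EV was 0.21 (SE 0.038, limma adjusted p = 1.76e-04). Against EV, WTHK2 differed by 0.050, with a 95% interval of -0.030 to 0.13 (limma adjusted p = 0.296). The direct comparison put WTHK2 below LAC by a log2 fold change of -0.16 (SE 0.038, limma adjusted p = 0.00677).

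Phosphofructokinase is the committed step, and 2 of its isozymes were measured. Pfkl codes for the liver-type subunit. It stood at 337, 333 and 332 CPM in EV, at 327, 317 and 338 in WTHK2, and at 381, 366 and 386 in LAC. The 3 LAC libraries were again above all others, and WTHK2 lay on both sides of EV. The log2 fold change was 0.18 in LAC against EV (SE 0.036, limma adjusted p = 5.21e-04) and -0.21 in WTHK2 against LAC (SE 0.036, limma adjusted p = 4.41e-04). In WTHK2 against EV it was -0.031, with a 95% interval of -0.11 to 0.044 (limma adjusted p = 0.506), and with every library rescaled to the same median it was 0.0053.

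Pfkm, the muscle-type subunit, was the most even of the 8, with a highest library only 1.10-fold above the lowest. Its values were 103, 101 and 108 CPM in EV, 105, 109 and 102 in WTHK2, and 111, 110.2 and 107 in LAC. All 3 groups overlapped. LAC against EV gave a log2 fold change of 0.077, with a 95% interval of -0.020 to 0.17 (limma adjusted p = 0.174). It passed when every library was rescaled to the same median (0.12, limma adjusted p = 0.0409). The log2 difference between WTHK2 and EV was 0.023 (-0.073 to 0.12, limma adjusted p = 0.709).

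Pfkfb3 codes for a regulatory enzyme that makes fructose 2,6-bisphosphate, the strongest activator of phosphofructokinase. It stood at 37.8, 36.0 and 35.7 CPM in EV, at 21.3, 23.0 and 26.5 in WTHK2, and at 21.6, 25.0 and 23.6 in LAC. Each of the 6 libraries outside EV was below each EV library, and WTHK2 and LAC overlapped. The EV mean was 36.5 ± 1.12 CPM, against 23.6 ± 2.64 for WTHK2 and 23.4 ± 1.71 for LAC (SD, n = 3). Its log2 fold change was -0.61 in WTHK2 (SE 0.084, limma adjusted p = 9.48e-06) and -0.62 in LAC (SE 0.084, limma adjusted p = 9.22e-06). Of the 6753 genes, 43 had a lower value in the first comparison and 59 in the second. Between WTHK2 and LAC the log2 difference was 0.0051, with a 95% interval of -0.17 to 0.18 (limma adjusted p = 0.975), and at the same median in every library it was -4.6e-04. These values rest on 384 to 878 reads per library, for which counting alone gives a relative error of 3.37% to 5.10%. The spread within WTHK2 was wider, with an SD of 11.2% of the mean. In bulk RNA a lower level in every cell and fewer cells with the transcript cannot be told apart.

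**Figure D2:**
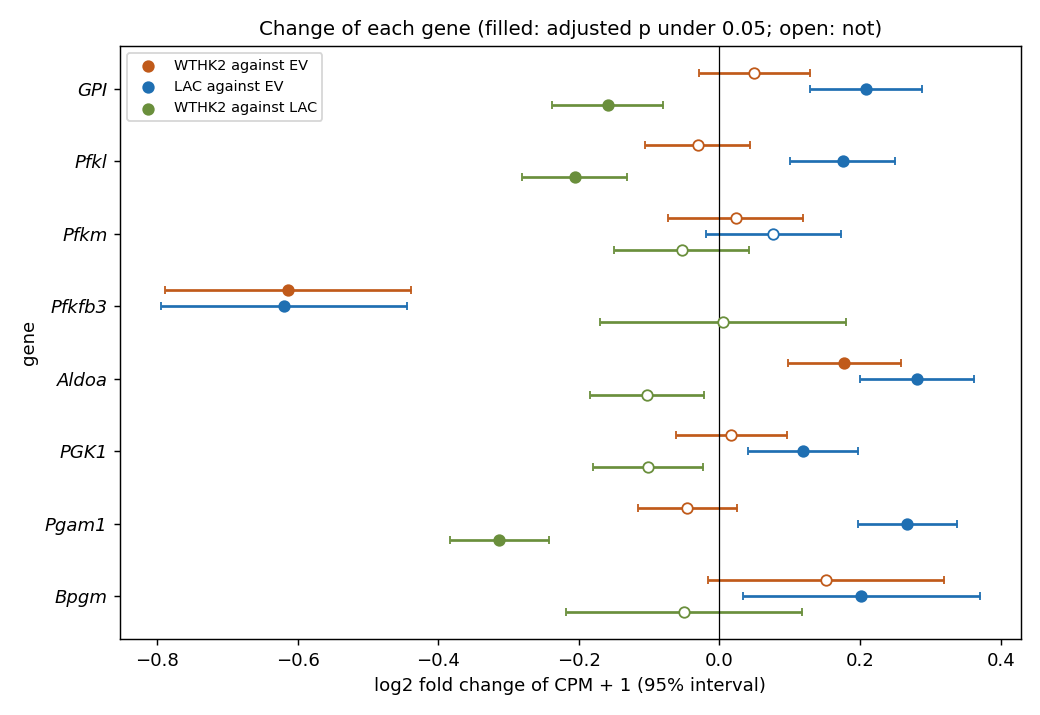
Log2 fold change of each transcript with its 95% interval from the limma fit, for WTHK2 against EV, LAC against EV and WTHK2 against LAC (filled points: adjusted p under 0.05; open points: not). Pfkfb3 lies near -0.6 in both comparisons with EV, and 6 genes lie above 0 with filled points in LAC against EV.

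Aldoa codes for the main aldolase of most tissues, which cleaves fructose 1,6-bisphosphate. It stood at 680.0, 686 and 697 CPM in EV, at 737, 799.8 and 797 in WTHK2, and at 827, 799 and 881 in LAC. All 6 libraries outside EV were above the EV libraries. Its log2 fold change was 0.18 in WTHK2 (SE 0.039, limma adjusted p = 9.73e-04) and 0.28 in LAC (SE 0.039, limma adjusted p = 1.09e-05). In LAC, 330 of 6753 genes had a higher value. Aldoa was the only one of the 8 that passed upward in both comparisons with EV. The log2 difference between WTHK2 and LAC was -0.10, with a 95% interval of -0.18 to -0.022, and did not pass over all genes (limma adjusted p = 0.0759). It passed without LAC replicate 2, at -0.13 (limma adjusted p = 0.0188), and was -0.064 without LAC replicate 3 (0.347) and -0.065 without WTHK2 replicate 1 (0.242).

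PGK1 codes for phosphoglycerate kinase, the first ATP-making step. It stood at 456, 454 and 444 CPM in EV, at 442, 466 and 461 in WTHK2, and at 485, 469 and 517 in LAC. LAC lay above the other groups, with LAC replicate 2 close to the highest WTHK2 library. The log2 fold change in LAC against EV was 0.12 (SE 0.038, limma adjusted p = 0.0134). This was the smallest of the rises, and the call was lost in several settings. Without EV replicate 3 it was 0.11 (limma adjusted p = 0.0570), and without LAC replicate 3 it was 0.079 (limma adjusted p = 0.103). Quantile normalization gave 0.068 (limma adjusted p = 0.117), and without the variance trend the adjusted p was 0.0605. In WTHK2 against EV the log2 difference was 0.017 (-0.062 to 0.096, limma adjusted p = 0.738), and -0.0058 with quantile normalization. WTHK2 against LAC gave -0.10 (-0.18 to -0.023, limma adjusted p = 0.0727), -0.13 without LAC replicate 2 (limma adjusted p = 0.0179) and -0.062 without LAC replicate 3 (0.340).

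Pgam1 codes for the phosphoglycerate mutase of most tissues, which moves the phosphate of 3-phosphoglycerate to the neighbouring carbon. It stood at 649.8, 635 and 636 CPM in EV, at 596, 638 and 629 in WTHK2, and at 778, 751 and 785 in LAC. The lowest LAC library exceeded the highest of the other 6 by more than the whole range of any group. Its log2 fold change was 0.27 in LAC against EV (SE 0.034, limma adjusted p = 4.99e-06), and -0.31 in WTHK2 against LAC (SE 0.034, limma adjusted p = 1.40e-06). In the second of these, 67 of 6753 genes had a lower value. WTHK2 against EV gave -0.046, with a 95% interval of -0.12 to 0.025 (limma adjusted p = 0.282).

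Bpgm codes for bisphosphoglycerate mutase, a relative of Pgam1 that makes 2,3-bisphosphoglycerate in a side loop of the pathway and is best known from red blood cells. It stood at 29.1, 35.1 and 29.4 CPM in EV, at 33.2, 34.5 and 36.2 in WTHK2, and at 39.0, 35.9 and 33.1 in LAC. EV replicate 2 lay among the values of the other groups, while EV replicates 1 and 3 lay below them. The log2 fold change in LAC against EV was 0.20 (SE 0.081, limma adjusted p = 0.0433), although the groups overlapped. The call was lost without EV replicate 1 (0.16, limma adjusted p = 0.179), EV replicate 3 (0.16, 0.155), LAC replicate 1 (0.14, 0.190) or LAC replicate 2 (0.20, 0.0669), and without replicate 1 of both WTHK2 and LAC (0.14, 0.158). In WTHK2 against EV the log2 difference was 0.15 (-0.017 to 0.32, limma adjusted p = 0.130), and without EV replicate 2 it passed at 0.24 (limma adjusted p = 0.0333). Counting alone gives a relative error of 3.32% to 4.08% for this gene, which had 600 to 906 reads per library. The SD was 10.8% of the mean in EV, 4.27% in WTHK2 and 8.12% in LAC.

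**Figure D3:**
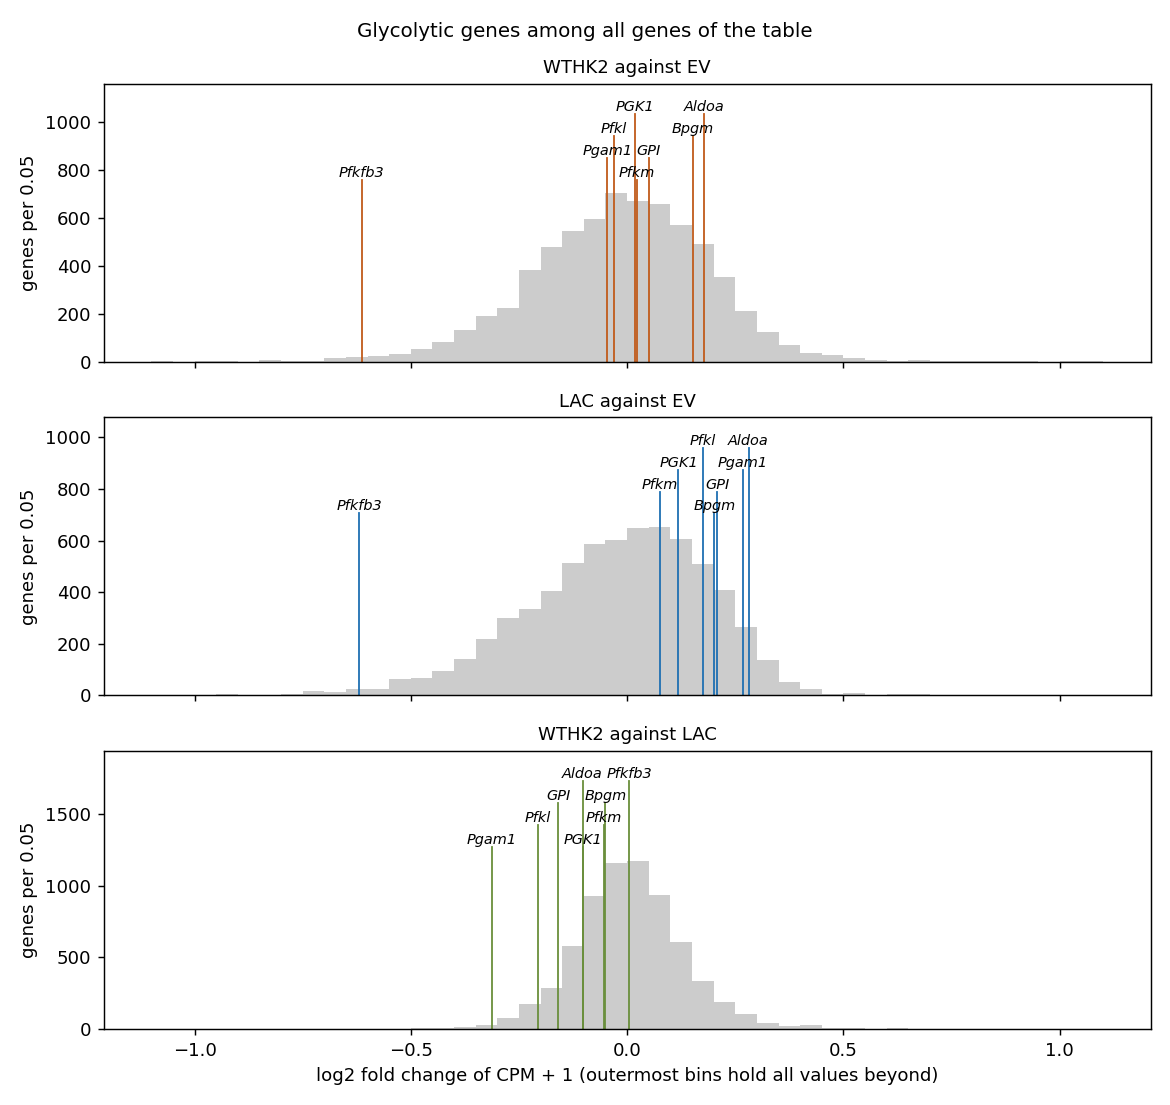
Distribution of log2 fold changes over 6753 genes (grey bars: genes per bin of 0.05) with the 8 glycolytic genes marked by lines, for each comparison. In LAC against EV, 7 of the 8 lines lie above 0 and that of Pfkfb3 lies in the lower tail; in WTHK2 against EV the lines other than that of Pfkfb3 lie between -0.046 and 0.18.

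Ratios of 2 genes within a library were taken as differences of log2(CPM + 1), so that library scaling enters only through the added 1 CPM. Each ratio below was compared between groups with a two-sided exact permutation test, for which 3 against 3 libraries cannot go below p = 0.10. The log2 ratio of Pfkl to Pfkm was 1.71, 1.72 and 1.61 in EV, 1.63, 1.53 and 1.71 in WTHK2, and 1.77, 1.72 and 1.84 in LAC. LAC lay above the other groups, by 0.099 over EV (exact p = 0.10) and by 0.15 over WTHK2 (exact p = 0.10), though its lowest library and the highest EV library were both at 1.72. Without EV replicate 3 the difference between LAC and EV was 0.064. EV and WTHK2 overlapped (difference -0.054, exact p = 0.60), with -0.0080 without WTHK2 replicate 2 and -0.098 without WTHK2 replicate 3, and -0.033 and -0.088 without EV replicates 2 and 3.

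The log2 ratio of Pfkfb3 to Pfkl, which sets the regulatory enzyme beside its target, parted EV from the rest. It was -3.13, -3.18 and -3.18 in EV, -3.88, -3.73 and -3.63 in WTHK2, and -4.08, -3.82 and -3.97 in LAC. The difference from EV was -0.58 in WTHK2 and -0.79 in LAC (exact p = 0.10 for each), and -0.60 and -0.82 with no pseudocount. WTHK2 and LAC overlapped, with a difference of 0.21 (exact p = 0.20).

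For the pair of mutases, the log2 ratio of Bpgm to Pgam1 was -4.44, -4.14 and -4.39 in EV. It was -4.12, -4.17 and -4.08 in WTHK2 and -4.29, -4.35 and -4.53 in LAC. WTHK2 was above LAC by 0.26 without overlap (exact p = 0.10). WTHK2 overlapped EV only through EV replicate 2 (difference 0.20, exact p = 0.20). LAC and EV overlapped widely (difference -0.065, exact p = 0.70), and the sign of that difference changed without EV replicate 2 or LAC replicate 3.

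**Figure D4:**
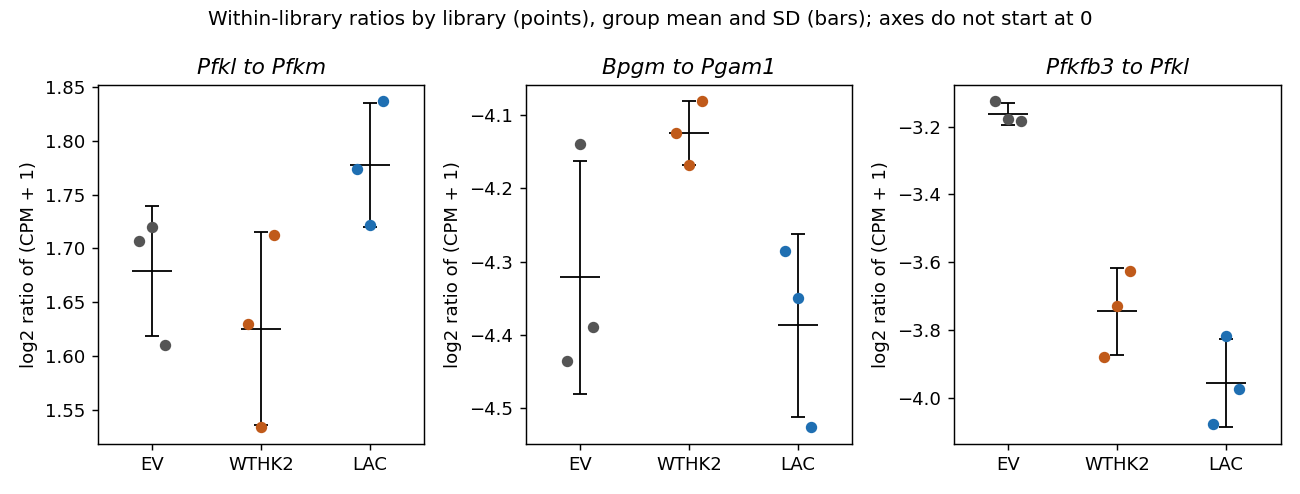
Log2 ratios of Pfkl to Pfkm, Bpgm to Pgam1 and Pfkfb3 to Pfkl in each library (points: 3 libraries per group; horizontal bars: group mean; vertical bars: SD). The ratio of Pfkfb3 to Pfkl lies between -3.18 and -3.13 in EV and at or below -3.63 in the other 6 libraries.

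Genes around the pathway were counted from lists, of which only a part was found among the genes analysed. For hexokinases and transport 7 of 17 symbols were found, and for the fates of pyruvate 12 of 23, without Ldha and Ldhb. The pentose phosphate list held 5 of 13, the branches 18 of 26 and the hypoxia-inducible factors 5 of 8. Shares of all genes that passed were 21.0% upward and 25.4% downward in WTHK2, 22.4% and 27.1% in LAC, and 8.37% and 7.76% in WTHK2 against LAC. Of 29 symbols on the glycolysis list 10 were found, while others such as Gapdh, Tpi1, Eno1 and Pkm were not. The 2 found besides the 8 members were Tigar, a phosphatase that lowers fructose 2,6-bisphosphate, and Minpp1, which can dephosphorylate 2,3-bisphosphoglycerate. Of these 2, 0 passed in any comparison in the limma fit, and at an unadjusted p under 0.05 Minpp1 was lower in WTHK2. Minpp1 averaged 127 ± 3.04 CPM in EV against 117 ± 6.54 for WTHK2 and 120 ± 7.65 for LAC. Its difference in WTHK2 (-0.12, limma adjusted p = 0.0608) passed without WTHK2 replicate 2 (-0.16, 0.0313) or with only the 6 libraries of the comparison (0.0398). In LAC it was -0.092 (limma adjusted p = 0.146) and passed without LAC replicate 2 (-0.14, 0.0347).

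Of 7 listed genes of hexokinases and of glucose, lactate and pyruvate transport, 3 were higher and 1 lower in each comparison with EV. Over all genes 46.4% passed in WTHK2 and 49.5% in LAC. Bsg, a partner protein of lactate transporters, had a log2 fold change of 0.16 in WTHK2 and 0.24 in LAC (limma adjusted p = 0.00264 and 4.55e-05). Mpc2, a subunit of the mitochondrial pyruvate carrier, had 0.25 and 0.26 (limma adjusted p = 0.00831 and 0.00621). Slc2a1, the main glucose transporter of cultured cells, rose by 0.15 in WTHK2 and 0.21 in LAC (limma adjusted p = 0.0427 and 0.00449), and Hk1 had -0.18 and -0.097 (3.64e-04 and 0.0277). Between WTHK2 and LAC 0 of 7 passed in the limma fit, with 2 lower at an unadjusted p under 0.05, and Bsg passed without LAC replicate 2 (-0.12, limma adjusted p = 0.0370). The list's median was 0.060 in WTHK2 and 0.010 in LAC.

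The pentose phosphate pathway leaves glycolysis at glucose 6-phosphate. Of its 5 listed genes, 3 were higher and 2 lower in WTHK2, 1 was higher and 2 lower in LAC, and 2 were higher and 0 lower in WTHK2 against LAC (0 lower also at an unadjusted p under 0.05 in limma). The shares of all genes that passed were 46.4%, 49.5% and 16.1%. The list's medians were 0.15, 0.022 and 0.031. Tkt, transketolase, averaged 866 ± 17.5 CPM in EV against 981 ± 8.35 for WTHK2 and 888 ± 13.2 for LAC. It rose by 0.18 on the log2 scale in WTHK2 (limma adjusted p = 1.01e-04), and WTHK2 exceeded LAC by 0.14 (limma adjusted p = 0.00260). Pgd, the second oxidative enzyme, rose by 0.15 in WTHK2 (limma adjusted p = 0.00112), and Pgls, the lactonase before it, by 0.20 in WTHK2 and 0.26 in LAC (limma adjusted p = 0.00556 and 7.36e-04). Prps2, which draws on ribose 5-phosphate, fell in WTHK2 (-0.18, limma adjusted p = 0.00198) and LAC (-0.12, 0.0191). Rpe, an epimerase of the non-oxidative arm, also fell in both (-0.16 and -0.20, limma adjusted p = 0.0220 and 0.00724).

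Among 12 listed genes for the fates of pyruvate, 1 was higher and 2 lower in WTHK2, set against 46.4% of all genes. In LAC 0 were higher and 3 lower in the limma fit, set against 49.5%. At an unadjusted p under 0.05 there, 1 was higher and 7 lower. Pdpr, a regulatory subunit of pyruvate dehydrogenase phosphatase, fell in both, with log2 fold changes of -0.30 and -0.30 (limma adjusted p = 0.00138 and 0.00113). Pdk2, a kinase that switches pyruvate dehydrogenase off, rose in WTHK2 (0.27, limma adjusted p = 0.00165) and was higher there than in LAC (0.29, limma adjusted p = 0.00315). Gpt2, an alanine transaminase, fell in WTHK2 (-0.29, limma adjusted p = 0.00645) and was -0.20 in LAC (0.0524). Dlat and Me1, a pyruvate dehydrogenase subunit and malic enzyme, fell in LAC (-0.13 and -0.14, limma adjusted p = 0.0110 and 0.0365). They were -0.097 and -0.046 in WTHK2 (limma adjusted p = 0.0524 and 0.491). Directly compared, WTHK2 and LAC did not differ at the threshold for Gpt2, Dlat or Me1 (limma adjusted p = 0.473, 0.641 and 0.269). Between WTHK2 and LAC 1 of 12 was higher and 1, Pck2, lower (-0.21, limma adjusted p = 0.0215), set against 16.1% of all genes. The list's medians were -0.077 in WTHK2 and -0.12 in LAC.

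Of 18 listed genes of branches from glycolytic intermediates, 2 were higher and 4 lower in WTHK2, set against 46.4% of all genes. In LAC 1 was higher and 3 lower, set against 49.5%. The list's medians were -0.020 and -0.047. Between WTHK2 and LAC 1 of 18 was higher and 1 lower, set against 8.37% and 7.76% of all genes. Psat1, of serine synthesis from 3-phosphoglycerate, fell in WTHK2 (-0.53, limma adjusted p = 1.27e-07) and in LAC (-0.24, 6.23e-04), and was lower in WTHK2 than in LAC (-0.29, 4.68e-04). Gpd2, the mitochondrial glycerol-phosphate dehydrogenase, fell in LAC (-0.48, limma adjusted p = 1.18e-06), and WTHK2 exceeded LAC by 0.33 (1.71e-04). It was lower in WTHK2 than in EV by a smaller log2 difference (-0.16, limma adjusted p = 0.0192). Pygb, a glycogen phosphorylase, fell in WTHK2 (-0.23, limma adjusted p = 4.24e-04). In LAC it was -0.10 (limma adjusted p = 0.0680), and WTHK2 against LAC did not pass (-0.13, 0.0624). Pmm1, a phosphomannomutase, rose in both (0.25 and 0.15, limma adjusted p = 0.00225 and 0.0415).

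Hypoxia-inducible factors are transcription factors known to act on many glycolytic genes. Hif1a fell in both WTHK2 and LAC, with log2 fold changes of -0.26 and -0.29 (limma adjusted p = 2.71e-04 and 7.91e-05). In LAC its relative Epas1 (-0.23, limma adjusted p = 0.00461) and their partner Arnt (-0.27, 0.00145) also fell. In WTHK2, Epas1 and Arnt were at -0.081 and -0.10 and did not pass (limma adjusted p = 0.305 and 0.174). WTHK2 against LAC did not pass for them either (0.15 and 0.16, limma adjusted p = 0.108 and 0.0791). Of 5 listed subunits and regulators, 0 were higher and 1 lower in WTHK2, set against 46.4% of all genes. In LAC 0 were higher and 3 lower, set against 49.5%. At an unadjusted p under 0.05 in limma, 1 and 0 were higher. The list's medians were -0.081 and -0.23. Between WTHK2 and LAC 0 of 5 passed in the limma fit, set against 16.1% of all genes, with 2 higher at an unadjusted p under 0.05.

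**Figure D5:**
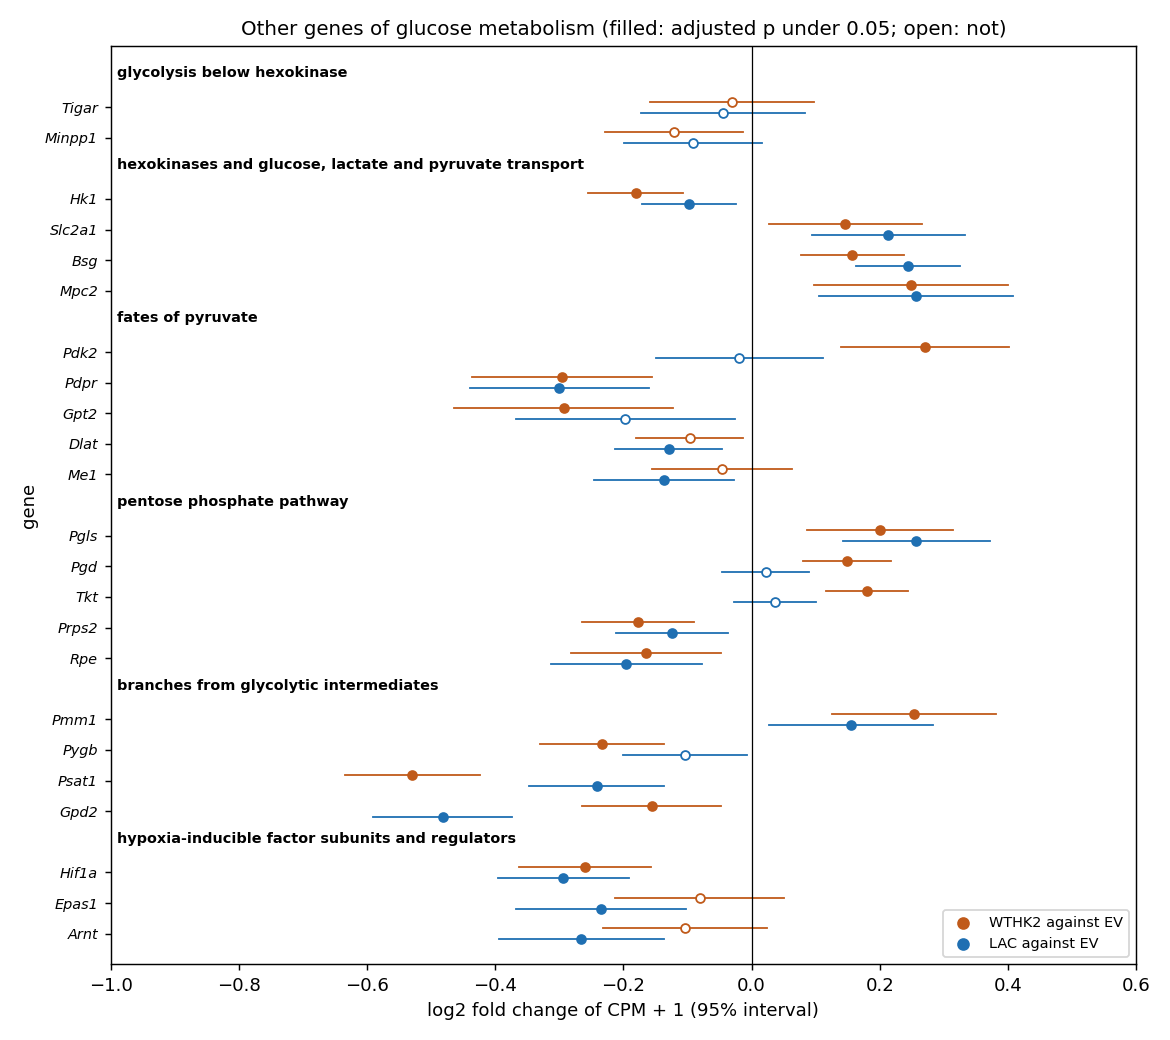
Log2 fold change with its 95% interval for the named genes around the pathway, grouped by list, in WTHK2 against EV and LAC against EV (filled points: adjusted p under 0.05; open points: not). Tkt and Pgd have filled points above 0 in WTHK2 and open points near 0 in LAC, and Psat1 and Gpd2 lie lowest, in WTHK2 and LAC respectively.

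Of 41 calls for genes picked from the lists, 31 held in every alternative run that tested them and 10 did not, with limma adjusted p in brackets. Called list genes that were not picked are outside this tally. In WTHK2, Slc2a1 (0.0427) was lost without EV replicate 1 (0.145) or 2 (0.121), or WTHK2 replicate 1 (0.247) or 3 (0.0737). Without WTHK2 replicate 1 its log2 fold change moved from 0.15 to 0.082. Gpd2 in WTHK2 (0.0192) was lost without EV replicate 1 (0.0541) or 2 (0.0848), or WTHK2 replicate 1 (0.103). Rpe in WTHK2 (0.0220) was lost without EV replicate 2 (0.0536) or 3 (0.0717), or WTHK2 replicate 1 (0.0616) or 3 (0.0612). In LAC, Hk1 (0.0277) was lost without EV replicate 1 (0.125) or 2 (0.0593), or LAC replicate 3 (0.0732). Dlat (0.0110) was lost without EV replicate 1 (0.0650) or LAC replicate 1 (0.0608). Me1 (0.0365) was lost without EV replicate 1 (0.114) or 2 (0.0924), or LAC replicate 1 (0.138) or 3 (0.0837). Prps2 (0.0191) was lost without EV replicate 1 (0.0524) or 2 (0.0902), or LAC replicate 1 (0.0750). Pmm1 (0.0415) was lost without EV replicate 1 (0.0774) or 3 (0.181), or LAC replicate 1 (0.0539), 2 (0.0876) or 3 (0.0857). In WTHK2 against LAC, Pck2 (0.0215) was lost without WTHK2 replicate 2 (0.0570) or 3 (0.124), or LAC replicate 1 (0.0815) or 2 (0.0663), and Pgd (0.0113) without WTHK2 replicate 3 (0.0531). Scaling ended some of the same calls. At the same median in every library, Hk1 in LAC moved to -0.055 (0.212) and Prps2 to -0.082 (0.106), and Dlat (0.0701) and Me1 (0.132) in LAC and Rpe (0.0672) and Gpd2 (0.0600) in WTHK2 were lost. Quantile normalization ended those of Dlat (0.0746), Me1 (0.0751) and Prps2 (0.0723) in LAC and Gpd2 (0.0578) in WTHK2. Without the variance trend Slc2a1 in WTHK2 (0.0876), Hk1 (0.0775) and Me1 (0.0662) in LAC, and Pck2 (0.0527) and Pgd (0.0578) in WTHK2 against LAC were lost, and with only 6 libraries Pmm1 in LAC (0.0550). Without replicate 1 of both WTHK2 and LAC, Slc2a1 (0.194), Rpe (0.0515) and Gpd2 (0.0830) in WTHK2 and Me1 in LAC (0.0828) were lost.

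For each of the 8 genes, the 3 others with the most similar course over the 9 libraries were found by Pearson correlation of log2(CPM + 1). The libraries fall into 3 groups and share their scaling, so these values describe likeness and have no test. Pfkfb3 was most like Amotl1 (r = 0.989, Spearman rho = 0.917), Hectd4 (r = 0.987) and Scaf8 (r = 0.986). Amotl1 averaged 165 ± 5.94 CPM in EV against 106 ± 14.0 for WTHK2 and 99.4 ± 7.50 for LAC. Aldoa was most like Prr7 (r = 0.984), Uqcrc1 (r = 0.984) and EIF3I (r = 0.979).

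Pgam1 was most like Cnbp (r = 0.973), Myc (r = 0.968, Spearman rho = 0.767) and Eef1g (r = 0.965). The transcription factor Myc averaged 484 ± 4.37 CPM in EV, 482 ± 8.82 CPM for WTHK2 and 566 ± 3.79 CPM for LAC. Pfkl was most like Macrod1 (r = 0.985), Rbm45 (r = 0.981) and Tcf3 (r = 0.966). GPI was most like Pltp (r = 0.984), Eif1b (r = 0.978) and Zcrb1 (r = 0.977). PGK1 was most like Aamp (r = 0.970), Camk1 (r = 0.967) and Mtfmt (r = 0.935).

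Bpgm was most like St3gal5 (r = 0.995), which averaged 45.4 ± 4.26 CPM in EV against 49.6 ± 1.89 for WTHK2 and 52.1 ± 3.71 for LAC, with Cox14 (r = 0.929) and Ppa2 (r = 0.927) next. Pfkm was most like Pigf (r = 0.955), Nmi (r = 0.896) and Gtf2f2 (r = 0.895). None of the 8 genes was among the 3 likest of another.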

How the data were processed

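The authors deposited normalized CPM for 6753 genes in 9 libraries. The submitters' processing notes name FastQC (0.11.8), STAR (2.7.0a), cutadapt (1.18), edgeR (3.8) and featureCounts (2.0.1). Genome build, annotation, strand setting, any gene filter and the handling of reads shared by near-identical gene copies were not stated there. Aldoa, PGK1, Pgam1 and GPI are uncertain to that extent. All values were whole multiples of a step per library (tolerance 0.01 reads), from which library sizes and reads per gene were estimated; no count test was run on them. The lowest gene mean was 20.4 CPM.

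Groups came from the sample titles. One limma fit (version 3.58.1, R 4.3.3) covered the 9 libraries on the scale log2(CPM + 1), which slightly understates changes of low genes, with the variance trend on and no other terms. The minimum mean of 1 CPM removed 0 genes. Tests were two-sided, adjusted by Benjamini-Hochberg over all genes and called at 0.05. On simulated data (6753 genes each) 63.9%, 73.0% and 65.3% of 1.2-fold changes were called in WTHK2 against EV, LAC against EV and WTHK2 against LAC, and false calls made up 3.95%, 7.77% and 5.46% of the calls. Only 83, 63 and 75 genes carried that change, and the noise was independent between genes. A far smaller share of genes was changed than the 46.4% and 49.5% called against EV here, so these rates need not hold for the real data.

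The members and lists were chosen with earlier results of these data known. Besides the 8 members, the text names the 3 likest genes of each and, per list and comparison, up to 4 called genes with the smallest adjusted p (up to 2 where none was called). One gene that this rule picks is not reported here, though the counts include it. Rpe and Gpd2 in WTHK2 and Amotl1, Myc and St3gal5 as examples were chosen after their values were seen. Alternatives were pseudocounts of 0.25 and 4, a minimum of 50 CPM or no minimum, one median for every library, quantile normalization, fits of 6 libraries, no variance trend, a replicate block and each library left out. A fit without both first replicates of WTHK2 and LAC was chosen after seeing the data. Python 3.11.15, pandas 2.3.3, numpy 2.4.6 and matplotlib 3.10.9 served for tables and figures.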

Additional observations from a re-analysis of the deposited data

How the results depend on the processing

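Over the fold changes of the 8 genes in the 3 comparisons, 355 alternative values kept direction and call, 9 lost the call, 6 gained it and 8 changed sign, all 8 for differences that had not passed. The calls of Pfkfb3 and Aldoa against EV, and those of GPI, Pfkl and Pgam1 in LAC against EV and in WTHK2 against LAC, held in every alternative that tested them. The minimum of 50 CPM removes Pfkfb3 and Bpgm, and with it 1 gene was called in WTHK2 against EV instead of 2. With the replicate block, 5 genes were called in WTHK2 against LAC instead of 3, with Aldoa (adjusted p = 0.0290) and PGK1 (adjusted p = 0.0405) added, and no other call of the 8 changed. Around the pathway, the block brought Minpp1 in WTHK2 (adjusted p = 0.0273) and, in WTHK2 against LAC, Bsg (0.0496) and Arnt (0.0481) past the threshold. Over all genes the block gave 3433, 3609 and 1414 calls instead of 3131, 3341 and 1089. The labels link libraries across groups only by number. Deviations from the group means of same-numbered libraries correlated at 0.44, 0.25 and 0.073 for WTHK2 with LAC and between -0.0057 and 0.21 for pairs with EV. Differently numbered pairs gave -0.33 to 0.19 for WTHK2 with LAC and -0.20 to 0.18 with EV. A library correlated best with its own number in 12 of 18 cases, each a choice among 3 libraries. Each pair of libraries entered from both sides, so the cases are not independent. Whether same-numbered libraries were handled together was not tested, and the main fit has no term for it. Sign changes were 0.0053 for Pfkl in WTHK2 and -4.6e-04 for Pfkfb3 in WTHK2 against LAC at the same median; -0.0058 for PGK1 in WTHK2 and -0.0034 for Pfkfb3 in WTHK2 against LAC with quantile normalization; and 0.036 for Bpgm in WTHK2 against LAC without both first replicates. Tigar changed sign at the same median in WTHK2 (0.0043) and with quantile normalization in WTHK2 against LAC (-0.0037). Leaving out 1 library moved Pfkfb3 in WTHK2 against LAC between -0.078 and 0.073, Bpgm there between -0.11 and 0.0069, Minpp1 there between -0.075 and 0.017, and the log2 ratio of Bpgm to Pgam1 in LAC against EV between -0.12 and 0.025. It gave 2 to 3, 5 to 7, and 3 to 5 called genes of the 8 in WTHK2 against EV, LAC against EV and WTHK2 against LAC. Over all genes it gave 662 (without WTHK2 replicate 3) to 1279 in WTHK2 against LAC, and 701 without LAC replicate 3, where all libraries gave 1089. The cause of these moves was not tested. List counts moved by up to 4 genes (1 to 7 of 12 for the fates of pyruvate lower in LAC). With 384 reads or more per value, counting error was largest for Pfkfb3 and Bpgm.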

Other observations

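Of the 6753 genes, 6143 (91.0%) could be placed by symbol on the RefSeq assembly CriGri-PICRH-1.0, which may differ from the build of the files and is used for gene order only. The 10 nearest placed genes of each of the 8, 5 on each side, were set beside it, a comparison chosen after seeing the data. Around Pfkfb3 the median log2 fold change was -0.019 in WTHK2 (range -0.20 to 0.17) and -0.093 in LAC (range -0.50 to 0.14), so none of the 10 neighbours fell as far as Pfkfb3 in either comparison. Of these 10, 1 passed upward and 3 downward in WTHK2, and 1 and 4 in LAC. Counts of neighbours given as higher or lower are of genes that passed. They are set against 21.0% of all genes upward and 25.4% downward in WTHK2, and 22.4% and 27.1% in LAC. Around Pgam1 the median in LAC was 0.090, with 3 of 10 higher and 1 lower, and the highest neighbour stood at 0.21. Around Aldoa, 6 of 10 neighbours were higher in LAC and 0 lower, with a median of 0.14 and a highest value of 0.41. Around Bpgm 0 of 10 neighbours were higher in LAC and 3 lower, with a median of -0.13. For Pfkl the neighbours' median in LAC was -0.070, for GPI 0.063 and for PGK1 -0.092.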
